A study of Oryctolagus cuniculus with 6 samples.

Results

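The 100 genes described here are those with the most abundant transcripts in the skin of wild-type rabbits (Oryctolagus cuniculus). They were chosen by ranking genes with an Ensembl gene ID on their mean level over the 3 wild-type libraries, and they are 100 of the 12276 such genes. RNA from the skin of rabbits aged 30 days was sequenced in 3 libraries of the genotype Prss53-/- and in 3 libraries labelled wild type. CRISPR/Cas9, a programmable nuclease used to cut a chosen gene, is entered as the treatment of all 6 libraries, wild type included. Of the allele made, the sex of the animals and the number of animals behind each library, the sources used here say nothing. Nothing states that libraries of a genotype came from separate animals, so every p-value measures only how these samples spread, and that spread may be technical.

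Skin is made of an epidermis of keratinocytes, a dermis in which fibroblasts lay down a collagen-rich matrix, and appendages such as hair follicles and sebaceous glands, with muscle and fat close by. In a tissue of this kind a small set of genes, many of them for structural proteins and for the machinery of translation, usually takes a large part of all messenger RNA. Keratins and keratin-associated proteins, the main proteins of epidermis and hair, are encoded by families of neighbouring genes in mammals. PRSS53 is a trypsin-like serine protease that has been linked to hair shape in humans, and the series addresses hair curvature and the skeleton in rabbits that lack it. The files do not pair the Ensembl IDs with gene names, and 0 of the 100 IDs could be matched to the supplied RefSeq table. The genes are therefore given by their wild-type rank and position, no role is assigned to any of them, and the level of Prss53 and of cell type markers was not analysed here. The labelled tissue could for the same reason not be checked against its markers.

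The deposited values are FPKM, which corrects fragment numbers for transcript length and for the size of the library. They are given per transcript event, such as a first exon, a last exon or a skipped exon. The level of a gene is the largest of its summed first-exon events, its summed last-exon events and its highest event, added over assembled loci with the same ID. A gene missing from a library is written as not listed and entered as 0. Because wild-type levels chose the genes, their wild-type levels and their differences from knockout are a description, and no support is drawn from them. In bulk skin, fewer cells of a type and less RNA per cell cannot be told apart. Total FPKM lay between 241136 and 267675 per library, and the number of reads behind a value is unknown. Between 12237 and 12477 genes were listed, with each locus without an ID counted as 1 gene. The genes tested include such loci as well. Knockout replicate 3 stood apart over the 10809 genes tested: 9.60% of them lay at least 2-fold below both other knockouts, against 2.10% to 2.50% for each other library within its own group. Among the 100 genes this was so for 4 in knockout replicate 3, for 3 and 2 in knockout replicates 1 and 2, and for 1 to 3 in the wild-type libraries.

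The abundant genes spanned a 14.7-fold range of mean wild-type level, from 4095 FPKM at rank 1 to 279 FPKM at rank 100, with a median of 537 FPKM. A level of 1000 FPKM was reached by 17 of them in wild type and by 20 in the knockout mean. All 100 passed the filter of the test, which asked for at least 1 FPKM in at least 3 libraries, and 98 were listed in all 6 libraries. The exceptions were the gene at rank 87, listed in 3 libraries, and the gene at rank 95, listed in 5. Steps between neighbouring ranks were small against the spread: the 3 wild-type values of the upper gene all lay above those of the lower one in 1 of the 99 pairs of adjacent ranks. Just inside the limit, the genes at ranks 98, 99 and 100 had mean wild-type levels of 285, 282 and 279 FPKM. Just outside it, those at ranks 101, 102 and 103 had 277, 277 and 276 FPKM.

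The most abundant gene, on chromosome 19 from 37474687 to 37486767, had 4005, 5857 and 4414 FPKM in knockout skin against 4148, 4314 and 3825 FPKM in wild-type skin. It held rank 1 in the mean of both genotypes, and the groups overlapped. Rank 2, on chromosome 7 from 129297505 to 129341817, had 2886, 4296 and 2767 FPKM in the knockouts against 3622, 3528 and 2920 FPKM. Rank 3, on chromosome 10 from 34497268 to 34534132, had 2876, 4508 and 3508 FPKM against 3830, 2563 and 3097 FPKM. At rank 4, on chromosome 3 from 33117402 to 33148571, the values were 2846, 4590 and 2890 FPKM against 3071, 3524 and 2767 FPKM. Ranks 2, 3 and 4 exchanged places in the knockout mean, and in all 4 genes knockout replicate 2 was the highest library.

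The gene at rank 5, on an unplaced scaffold from 95925 to 98924, had 2159, 3425 and 2210 FPKM in knockout skin against 2728, 4021 and 2392 FPKM in wild-type skin. In both genotypes replicate 2 was the highest. Rank 7, on chromosome 12 from 60379747 to 60382270, was the steadiest of the first 10, with 2209, 2145 and 2540 FPKM in knockout skin against 2275, 2122 and 2256 FPKM in wild-type skin. Rank 10, on chromosome 13 from 40074551 to 40083305, had 290, 2219 and 2458 FPKM in knockout skin against 1968, 1392 and 2007 FPKM in wild-type skin. Its groups overlapped, and knockout replicate 1 lay far below the other 5 libraries. The remaining genes of the first 10, at ranks 6, 8 and 9, each lie in a run of abundant genes and are described with those.

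**Figure D1:**
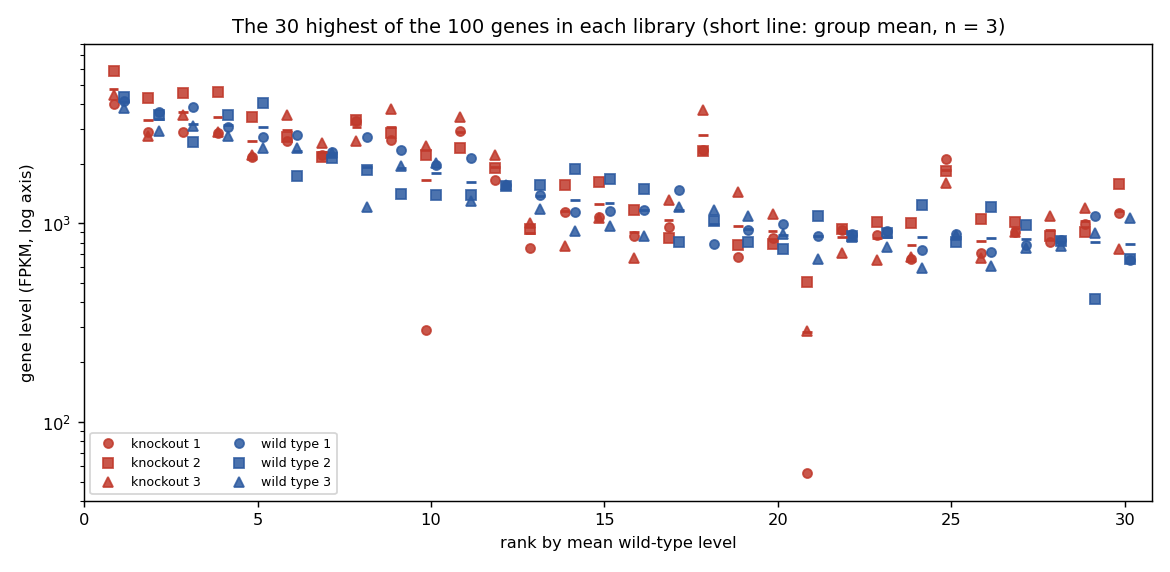
Level in FPKM (log axis) of the 30 genes with the highest wild-type mean, by wild-type rank, with 1 marker per library (red for knockout, blue for wild type) and a short line at each group mean of 3 libraries. Most markers of a gene sit close together, while at rank 10 knockout replicate 1 (290 FPKM) and at rank 21 all knockouts (55.5 to 506 FPKM) sit low, and at ranks 18 and 25 all knockouts sit above all wild-type libraries.

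Together the 100 genes held 33.1%, 36.3% and 33.8% of all FPKM in the knockouts and 32.0%, 32.6% and 30.97% in wild type. The means were 34.4% ± 1.68 and 31.9% ± 0.827 (SD, n = 3 per group), and the lowest knockout lay above the highest wild-type library. Total FPKM includes loci without an ID. Because the wild-type mean chose the genes, the share was also taken over each library's own 100 most abundant genes with an ID, which does not depend on that choice. This share was 33.9%, 37.0% and 35.7% in the knockouts and 32.3%, 32.9% and 31.1% in wild type. The knockout mean was higher by 3.45 percentage points (35.5% ± 1.58 against 32.1% ± 0.948, SD, n = 3), with 3 of 3 knockouts above every wild-type library and p = 0.1 in an exact two-sided permutation test, the smallest p that 3 against 3 allows, so it could not pass 0.05. Without knockout replicate 2 the difference was 2.71 points, without knockout replicate 3 it was 3.35 points, and with last-exon events alone it was 2.22 points. The 10 most abundant genes of each library held 12.2%, 13.6% and 12.4% in the knockouts and 11.2%, 10.9% and 10.4% in wild type (exact p = 0.1, and 0.1 for both tests after Benjamini-Hochberg adjustment over the 2). The genes that made up 50% of all FPKM were counted with loci without an ID included. They numbered 343, 275 and 283 in the knockouts and 410, 399 and 450 in wild type, again without overlap. The genes tested had a median log2 fold change of -0.07.

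**Figure D2:**
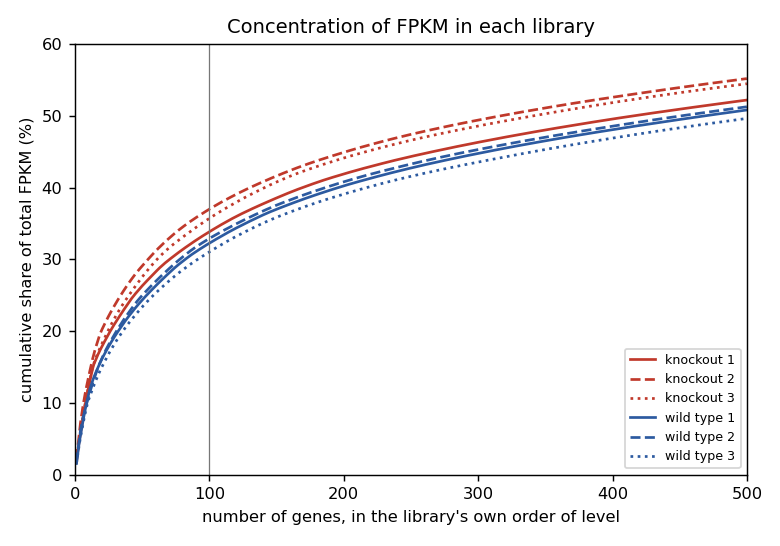
Cumulative share of total FPKM (%) against the number of genes with an ID, ordered by level within each library. The total includes loci without an ID. There is 1 line per library, red for knockout and blue for wild type, with a vertical line at 100 genes. At 100 genes the knockout lines lie between 33.9% and 37.0% and the wild-type lines between 31.1% and 32.9%.

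Most of the abundant genes of wild-type skin were also the abundant genes of knockout skin. Of the 100, 87 were among the 100 highest by knockout mean, 8 of the first 10 stayed in the first 10, and none had a knockout rank of 200 or lower. In single libraries, 86, 88 and 83 of them were among the own 100 highest genes of the knockouts, and 94, 95 and 95 among those of the wild-type libraries, which had chosen them. When the choice was made from 2 wild-type libraries, the left-out one held 92, 93 and 91 of the 100 genes, and the knockouts held 82 to 88. In all 6 libraries at once, 72 were among the own 100 highest. The 13 genes that left the 100 highest by knockout mean had knockout ranks from 101 to 184. The 5 that lost the most places were at wild-type ranks 83, 21, 71, 99 and 66. Without knockout replicate 3, 88 of the 100 stayed.

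Of the 13 genes that entered in their place, the one with the highest knockout mean lies on chromosome 13 from 39473515 to 39477527, at wild-type rank 446. It had 355, 337 and 1115 FPKM in knockout skin against 82.8, 46.3 and 77.2 FPKM in wild-type skin, so every knockout lay above every wild-type library. On chromosome 1 from 34527068 to 34533382, a gene at wild-type rank 316 had 114, 470 and 602 FPKM in knockout skin against 121, 101 and 47.6 FPKM in wild-type skin. Its knockout replicate 1 was within the wild-type range. Knockout replicates 1 and 2 listed another entrant, on an unplaced scaffold from 101972 to 171117, at 891 and 534 FPKM, and no other library did. Entrants from closer by were on chromosome 10 from 45131930 to 45138341, at wild-type rank 107, and on chromosome 2 from 38137435 to 38155835, at rank 119. They had knockout means of 387 and 384 FPKM against 266 and 248 FPKM in wild type.

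Gene by gene, the fitted change was under 1.25-fold in 58 of the 100 genes, and no share of all genes tested is given for that limit. In knockout, 52 genes had a higher and 48 a lower mean log2 level, and the median log2 fold change was 0.05. All fold changes were fitted to log2(FPKM + 1), which understates those of low genes. Past 2-fold were 8 genes, 4 in each direction, and of all genes tested 4.9% were past 2-fold. All knockouts lay above all wild-type libraries in 17 genes (9.5% of all genes tested) and below them in 10 (16.6%). Together these 27 genes compare with 26.1% of all genes tested. A limma fit over all 10809 genes called 1 of the 100 at an adjusted p under 0.05, and the share called among all genes was 0.944%. It was higher in knockout (0.546% of all genes were called in that direction), and 0 were called lower (0.398%). At an unadjusted p under 0.05 there were 19, of which 10 were higher and 9 lower, against 16.2% of all genes tested. Nothing is read from these counts, since the fit shares its wild-type values with the choice of the genes.

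**Figure D3:**
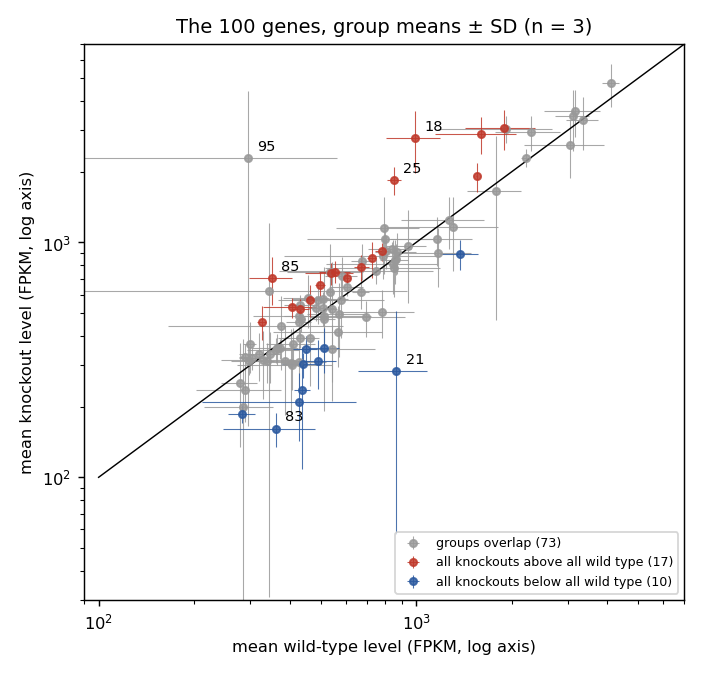
Mean knockout level against mean wild-type level of the 100 genes (FPKM, log axes), with bars of 1 SD (n = 3 per group) and the line of equal levels. Bars are cut at the edge of the plot. Knockout bars whose SD nears or exceeds the mean are shortened in both directions to just under the mean. Grey points are the 73 genes whose groups overlap, red the 17 with all knockouts above and blue the 10 with all knockouts below all wild-type libraries; wild-type ranks mark 6 of them.

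The gene that passed was at rank 25, on the minus strand of chromosome 3 from 97143559 to 97147912. It had 2108, 1837 and 1599 FPKM in knockout skin against 886, 804 and 869 FPKM in wild-type skin. The lowest knockout was above the highest wild-type library by more than the spread within either group. The mean rose to 1848 ± 255 FPKM from 853 ± 43.5 (n = 3 each, SD; log2 fold change by limma 1.11 ± 0.17 SE, adjusted p = 0.0390), and the gene moved from rank 25 to rank 14. Its value was carried by 2 last exons, of which the one from 97143678 to 97143728 had 88.6% to 96.6% of the last-exon FPKM in every library. In limma fits without 1 library the adjusted p was 0.0421 without knockout replicate 3, but 0.0998 and 0.111 without knockout replicates 1 and 2 and 0.165, 0.194 and 0.168 without wild-type replicates 1, 2 and 3. The log2 fold change stayed between 1.01 and 1.21 in these fits.

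The largest difference upwards that did not overlap was at rank 18, on an unplaced scaffold from 79079 to 162954. The level was 2336, 2299 and 3740 FPKM in knockout skin against 789, 1027 and 1169 FPKM in wild-type skin (log2 fold change by limma 1.47 ± 0.25 SE, adjusted p = 0.0561). Its ID covers 2 assembled loci. The longer one had 2336, 2299 and 3740 FPKM in the knockouts against 540, 626 and 620 FPKM in wild type. These knockout values are those of 1 first exon, from 79079 to 79208, which had 0, 0 and 520 FPKM in wild type. Last exons of the gene summed to 584, 465 and 758 FPKM in knockout skin against 540, 626 and 713 FPKM in wild-type skin, which overlap. The level thus rests partly on different events in the 2 genotypes. The other locus, from 92558 to 95498, was listed only in wild type, at 249, 402 and 549 FPKM. Taken singly in a limma fit, the longer locus had a log2 fold change of 2.19 and was called higher in knockout (adjusted p = 0.00886). The other locus was called lower in that fit. No knockout lists it and it passed the filter through wild type alone, so no fold change is given and nothing is read from its call. From last-exon events alone the log2 fold change of the gene was -0.08, the reverse direction.

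On the same scaffold the loci of ranks 30 and 87 overlap that of rank 18. Rank 30, from 92158 to 165141, had 1128, 1569 and 744 FPKM in knockout skin against 650, 661 and 1057 FPKM in wild-type skin. Rank 87, from 101260 to 171108, had 542 and 1318 FPKM in knockout replicates 1 and 2 and 1029 FPKM in wild-type replicate 3, and was not listed elsewhere. The level of a single ID here thus moved between being absent and being among the highest. Summed over the 3 genes, the level was 4005, 5186 and 4484 FPKM in knockout skin against 1439, 1689 and 3255 FPKM in wild-type skin. With all 6 loci that overlap them, including the entrant from 101972, the sums were 4896, 5720 and 4484 FPKM against 1508, 1689 and 3255 FPKM. In both sums every knockout lay above every wild-type library, while the split of reads among overlapping loci is uncertain. Both sums also take in the first exon that set the knockout level of rank 18.

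At rank 85, on chromosome 13 from 38907398 to 38910127, the knockouts had 695, 547 and 873 FPKM and wild type 379, 289 and 387 FPKM (log2 fold change by limma 0.99 ± 0.22 SE, adjusted p = 0.114). The neighbouring gene, from 38911188 to 38913909 on the same strand and 1060 bases away, is the one at rank 101, just outside the limit. It differed in the other direction, with 135, 151 and 137 FPKM in knockout skin against 301, 302 and 230 FPKM in wild-type skin (log2 fold change -0.96 ± 0.17 SE, limma adjusted p = 0.0623). Their sum was 830, 699 and 1011 FPKM in knockout skin against 680, 591 and 616 FPKM in wild-type skin. The groups did not overlap in either gene or in the sum, and neither gene passed.

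Further genes without overlap upwards were at ranks 9 and 11, described with their neighbourhoods, and at ranks 12, 33, 35, 38, 41, 46, 49, 57, 61, 68, 77 and 90. None of these passed. Rank 12, on an unplaced scaffold from 519039 to 520666, was steady in wild type at 1556, 1543 and 1550 FPKM and had 1654, 1897 and 2198 FPKM in the knockouts.

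Among genes with all knockouts below all wild-type libraries, none passed the test. The largest difference was at rank 21, on chromosome 8 from 32580080 to 32603783. It had 55.5, 506 and 286 FPKM in knockout skin against 860, 1082 and 659 FPKM in wild-type skin (log2 fold change by limma -2.08 ± 0.74 SE, adjusted p = 0.245). The knockouts themselves differed widely, with replicate 1 the lowest. Nearly all of the level came from the plus-strand locus. Its shorter first exon, from 32580080 to 32580528, carried 100% of that locus's first-exon FPKM in each wild-type library, and 0%, 87.9% and 75.0% in the knockouts. The remainder lay on a longer form of that exon, ending at 32580670, which was listed only in the knockouts, at 49.6, 60.5 and 69.9 FPKM. The minus-strand locus of the same ID had 5.12 to 7.26 FPKM in all libraries.

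Rank 83, on an unplaced scaffold from 2324614 to 2336699, had 143, 193 and 148 FPKM in knockout skin against 318, 495 and 275 FPKM in wild-type skin (log2 fold change by limma -1.13 ± 0.25 SE, adjusted p = 0.113). It lost more places than any other of the 100, going to rank 184. Rank 66, on chromosome 2 from 139151393 to 139167390, had 367, 219 and 117 FPKM in the knockouts against 455, 452 and 408 FPKM. Here wild type was tight and the knockouts were spread. Rank 71, on chromosome 12 from 110516022 to 110527965, had 288, 183 and 160 FPKM against 680, 290 and 316 FPKM. Its highest knockout was close to its lowest wild-type library, and wild-type replicate 1 was high. The gene at rank 99, on chromosome 11 from 63618846 to 63627694, had 195, 198 and 168 FPKM against 281, 310 and 255 FPKM, with little spread in either group. Rank 58, on chromosome 13 from 39307372 to 39399125, had 366, 228 and 342 FPKM against 421, 500 and 556 FPKM. At this gene 6 events, among them a last exon from 39397287 to 39397642, were listed in all 3 wild-type libraries and in no knockout. The other genes of this kind were at ranks 13, 53, 64 and 65.

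A few of the abundant genes varied widely within a genotype. At rank 95, on an unplaced scaffold from 5110 to 27693, the knockouts had 4373, 2328 and 143 FPKM, while wild type had 523 and 363 FPKM in replicates 1 and 3 and was not listed in replicate 2. This gene was the highest of all in knockout replicate 1, at rank 10 in knockout replicate 2 and at rank 207 in knockout replicate 3. Its level in knockout replicate 1 was a sum of several first exons, some of them overlapping, of which the highest had 1120 FPKM. Its last exons summed to 383, 1245 and 0 FPKM in the knockouts against 0, 0 and 143 FPKM in wild type. At rank 98, on chromosome 19 from 41824339 to 41877317, the knockouts had 487, 32.9 and 76.3 FPKM and wild type 280, 217 and 357 FPKM. The median coefficient of variation over the 100 genes was 14.5% in wild type and 19.8% in knockout. Over all genes tested it was 13.8% and 22.4%. In knockout it was over 50% in 8 of the 100 genes.

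The same libraries were the highest in many of the genes. Knockout replicate 3 was the highest knockout in 55 genes and wild-type replicate 1 the highest wild-type library in 51. In 35 genes both held, with medians of 1.18 and 1.10 times the group mean. In another 20 genes replicate 2 was the highest of both groups, at medians of 1.29 and 1.35 times the group mean. The shared number is not known to mark a shared animal or day.

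The abundant genes also had properties in common beyond their level. The level is built from first-exon, last-exon and single-event values and added over loci. Span, events, loci and ends are therefore not independent of the choice, and nothing is read from them. The 100 genes were short: their median span from the first to the last event was 5396 bases, against 25620 bases over all genes with an ID. Spans under 5000 bases occurred in 48 of the 100 and in 16.6% of all genes, and spans over 50000 bases in 11 and in 32.2%. At the extreme, 6 spanned under 500 bases (4.68% of all genes), the shortest, at rank 35 on chromosome 13 from 121845428 to 121845537, just 110 bases. Its level was 765, 769 and 1032 FPKM in knockout skin against 749, 710 and 714 FPKM in wild-type skin. FPKM divides by length, so level and span are not independent measures, and no test is given. The 100 genes also had few listed events, with a median of 2 against 3 over all genes, although 1 had 45. In 72 of them (52.3% of all genes) the only events were first and last exons.

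**Figure D4:**
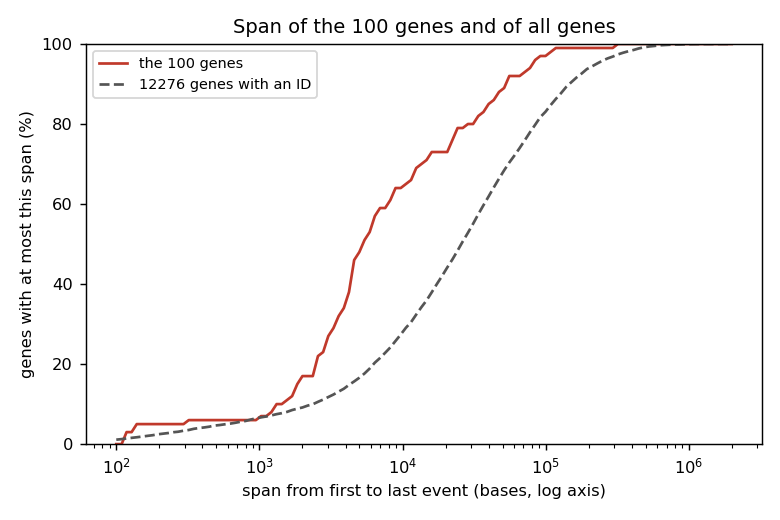
Cumulative share (%) of genes whose span from first to last event is at most the value on the x axis (bases, log axis), for the 100 genes (red) and all 12276 genes with an ID (dashed grey). The red curve lies to the left over most of its length: 48 of the 100 genes and 16.6% of all genes span under 5000 bases.

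Several assembled loci shared 1 ID in 18 of the 100 and in 3.64% of all genes, and loci lay on both strands in 17 and in 3.23%. Averaged over the 6 libraries, the strand with less FPKM stayed under 10% of the level in all 17. In single libraries it reached 26.1% at rank 58, 15.4% at rank 16 and 10.6% at rank 21. The library kit named in the labels is NEBNext Ultra RNA, and no source used here says that strand entered the counting, so reads of overlapping loci on opposite strands may not be separable. Summed last exons came to under 50% of the summed first exons in 16 of the 88 abundant genes that could be compared, 18.2% against 8.66% of 8634 genes with an ID. The reverse, summed first exons under 50% of the last, occurred in 4 of the 88 (4.55%) and in 9.03% of the 8634.

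By position, 28 of the 100 genes lay on unplaced scaffolds, which hold 25.5% of all genes with an ID. Chromosome 19 had 12 of its 602 genes among the 100 and chromosome 4 had 9 of 519. No other chromosome had more than 7. As a share of its genes, chromosome 6 had the most (4 of 157, 2.55%), ahead of chromosomes 19 (1.99%) and 4 (1.73%). With a limit of 1 Mb between neighbours, 25 of the abundant genes fell into 8 neighbourhoods, and 6 pairs overlapped.

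The largest neighbourhood was on chromosome 19 from 41822726 to 42584294, with 6 genes at ranks 8, 98, 53, 9, 79 and 17. Their summed level was 7938, 7520 and 8621 FPKM in knockout skin against 7735, 5058 and 5713 FPKM in wild-type skin, so the groups overlapped through wild-type replicate 1. Within it, 2 genes had a higher and 4 a lower mean log2 level in knockout. Rank 9, from 42365089 to 42481901, had 2619, 2848 and 3744 FPKM in knockout skin against 2345, 1410 and 1936 FPKM in wild-type skin (log2 fold change by limma 0.71 ± 0.24 SE, adjusted p = 0.232). Its last exons alone summed to 648, 321 and 896 FPKM against 515, 313 and 391 FPKM, which overlap (log2 fold change by limma 0.52, adjusted p = 0.536). Rank 8, from 41822726 to 41877544, had 3263, 3303 and 2596 FPKM against 2706, 1852 and 1211 FPKM, with overlapping groups. Its last exons alone summed to 224, 166 and 288 FPKM against 193, 95.4 and 176 FPKM. The opposite strand of the same interval holds rank 98, and the sum of both was 3750, 3336 and 2673 FPKM against 2987, 2069 and 1568 FPKM. In the other direction, rank 53, from 41884462 to 41888685, had 331, 293 and 443 FPKM in knockout skin against 562, 453 and 528 FPKM in wild-type skin, without overlap. Ranks 17 and 79 overlap each other, and their sum was 1238, 1043 and 1762 FPKM against 1841, 1126 and 1681 FPKM.

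A second run of genes was on chromosome 4 from 36330676 to 36694673, with 5 genes at ranks 31, 11, 32, 6 and 73. The sums were 7059, 6524 and 9039 FPKM in knockout skin against 7480, 4493 and 5744 FPKM in wild-type skin, and here too wild-type replicate 1 was inside the knockout range. Rank 11, from 36330695 to 36433020, had 2900, 2384 and 3411 FPKM in knockout skin against 2128, 1391 and 1297 FPKM in wild-type skin (log2 fold change by limma 0.87 ± 0.24 SE, adjusted p = 0.165). Its last exons alone summed to 423, 377 and 556 FPKM against 442, 325 and 377 FPKM, which overlap (log2 fold change by limma 0.24, adjusted p = 0.582). Rank 6, from 36577332 to 36630892, had 2593, 2730 and 3522 FPKM against 2792, 1734 and 2393 FPKM, with overlap. Its last exons alone summed to 336, 343 and 526 FPKM against 472, 317 and 465 FPKM. Lower means in knockout were found at rank 32, with 478, 408 and 637 FPKM against 956, 556 and 832 FPKM, and at rank 73, with 293, 251 and 382 FPKM against 380, 372 and 535 FPKM. Both overlapped between the groups.

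Loci in these runs had several first exons set far apart. The minus-strand locus of rank 9 had 8 first exons of 348 to 685 bases at 7 sites, with 12163 to 17346 bases between neighbouring sites. That of rank 11 had 4, of 378 to 517 bases and 31571 to 38369 bases apart, and that of rank 6 had 3, of 435 to 447 bases and 16772 to 33743 bases apart. The smaller neighbourhoods had 2 or 3 genes each. One on chromosome 8 from 32580080 to 32893009, with ranks 21 and 47, had sums of 331, 965 and 605 FPKM in knockout skin against 1361, 1844 and 1026 FPKM in wild-type skin, and its groups did not overlap.

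The share of each transcript form within a gene was not ranked, although it is made from the same event values as the level that was. For each gene with several forms, the share of FPKM on each first exon, last exon, included exon or retained intron was tested in a limma fit over 16305 elements of all loci. Of these elements 111 belonged to 32 of the abundant genes, among them 74 first exons and 29 last exons, and the other 68 genes had none to test. In 76 of the 111 elements the shares differed by under 10 percentage points. One element passed at an adjusted p under 0.05 (0.675% of all elements), 16 had an unadjusted p under 0.05 (6.61%) and 29 had groups that did not overlap (8.91%). Shares of a locus add up to 100%, so elements of 1 locus are not independent.

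The element that passed was a first exon of rank 8, on the minus strand of chromosome 19 from 41859184 to 41859703. It carried 4.21%, 3.70% and 0% of the first-exon FPKM in the knockouts and 32.9%, 40.9% and 41.3% in wild type. The groups were far apart, with a difference of -35.7 ± 3.74 (SE) percentage points and a limma adjusted p of 0.0247. Without single libraries the adjusted p was 0.0601, 0.0694 and 0.0566 (knockout replicates 1, 2 and 3) and 0.0633 (wild-type replicate 2), and it stayed under 0.05 without wild-type replicate 1 or 3. A second first exon, from 41859218 to 41859703, shares its outer end and differs only in where it is spliced. It carried 33.7% in knockout replicate 2, 34.7% in wild-type replicate 1 and 0% elsewhere. With both taken as 1 exon the shares were 4.21%, 37.4% and 0% in the knockouts and 67.6%, 40.9% and 41.3% in wild type, and the adjusted p was 0.615. The call was thus made only with the 2 exon forms kept apart. In knockout replicate 3 another first exon, from 41827895 to 41828351, took 84.0% of the FPKM, while it had 0.129% to 6.57% in the other libraries.

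**Figure D5:**
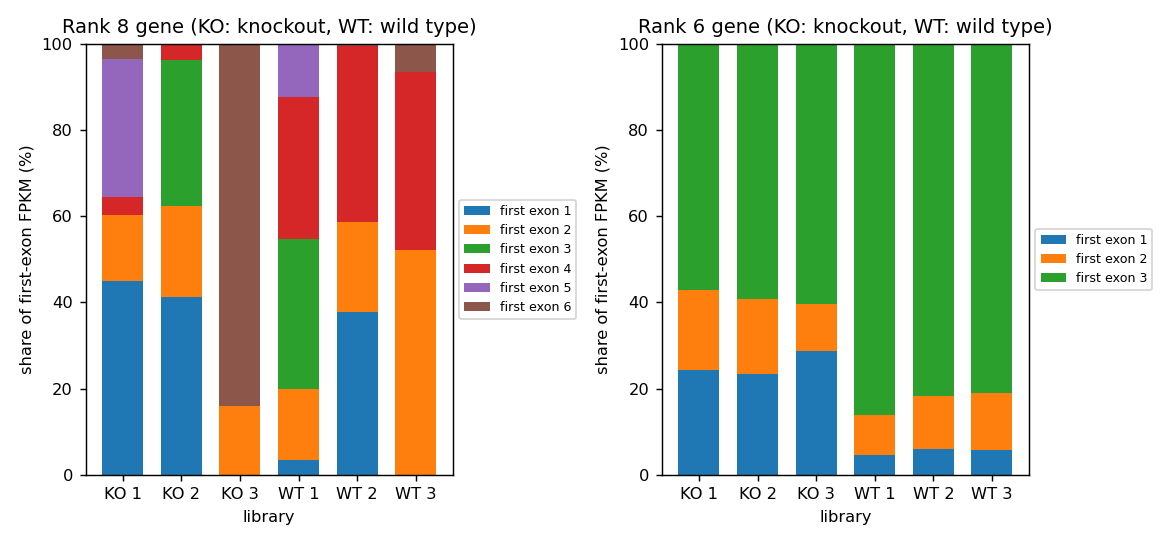
Share of first-exon FPKM (%) carried by each first exon of the rank 8 gene (left) and of the minus-strand locus of the rank 6 gene (right), as stacked bars for each library; first exons are numbered from the 5′ side. In the rank 8 gene the make-up differs from library to library, with 1 first exon at 84.0% in knockout replicate 3; in the rank 6 gene first exon 3 carries 57.2% to 60.3% in the knockouts and 80.9% to 86.2% in wild type.

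The minus-strand locus of rank 6 had a steadier make-up. Its first exon from 36579931 to 36580371 carried 57.2%, 59.2% and 60.3% in the knockouts and 86.2%, 81.8% and 80.9% in wild type, a difference of -24.1 ± 3.16 (SE) points (limma adjusted p = 0.0510). Spread within each genotype was a small part of that difference. The adjusted p lay on both sides of 0.05 in the alternatives. It was 0.0562, 0.0694 and 0.0456 without knockout replicates 1, 2 and 3, and 0.0363, 0.0599 and 0.0393 without wild-type replicates 1, 2 and 3. It was 0.0282 when the first exons of a locus needed at least 5 FPKM together, and 0.0494 with those of the same outer end merged. With the replicate number as a block in the limma fit, the adjusted p was 0.388. The first exon furthest upstream, from 36630446 to 36630892, carried 24.3%, 23.4% and 28.6% in the knockouts against 4.63%, 6.05% and 5.84% (limma adjusted p = 0.0864). In FPKM the downstream exon had 1340, 1458 and 1938 in the knockouts and 2320, 1418 and 1928 in wild type, which overlap. The upstream one had 569, 576 and 921 against 125, 105 and 139, which do not. On the opposite strand, the knockouts listed a first exon from 36577332 to 36577431 at 249, 267 and 308 FPKM, and no wild-type library did. Through other events, the locus on that strand had 100, 0.606 and 10.4 FPKM in wild type.

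At rank 16, on chromosome 19 from 8926143 to 9231694, the main first exon from 9053626 to 9054013 carried 78.1%, 78.9% and 92.2% in the knockouts and 99.95%, 100% and 100% of the plus-strand FPKM in wild type. The rest in the knockouts lay mainly on a first exon from 9025830 to 9025942, which no wild-type library listed. The minus-strand locus of the same ID, from 9043409 to 9231694, had 26.2 FPKM in knockout replicate 3 and was not listed in the other knockouts, against 180, 223 and 107 FPKM in wild type. The only last exon of rank 16 lies on that minus-strand locus, at 152, 189 and 80.8 FPKM in wild type, and no knockout listed it, so no fold change is given. Over all events its level was 864, 1165 and 666 FPKM in knockout skin against 1171, 1485 and 860 FPKM in wild-type skin, which overlap.

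Other genes with elements that did not overlap included rank 31, whose first exon on chromosome 4 from 36375842 to 36376219 carried 64.3%, 55.3% and 63.4% in the knockouts and 50.5%, 31.7% and 32.5% in wild type. At rank 17, the first exon on chromosome 19 from 42554856 to 42555707 carried 24.5%, 23.8% and 23.9% against 38.4%, 34.6% and 31.5%. A 21-base exon of rank 39, on chromosome 18 from 9567491 to 9567511, was included at 100%, 100% and 81.1% against 71.7%, 74.4% and 69.8%. None of these passed. At rank 45 the first exon from 12460380 on chromosome 19 had 100%, 100% and 84.7% against 72.2%, 59.9% and 64.0%, but first exons of that locus came to just 3.58 to 5.62 FPKM, where the whole gene had 344 to 812 FPKM.

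The tables list 490 events of the 100 genes, of which 227 were listed in all 6 libraries (46.3%, against 41.9% of all 76612 events). All 3 knockouts and no wild-type library listed 3 of them (0.612%, against 0.817% of all events), at ranks 6, 16 and 21. All 3 wild-type libraries and no knockout listed 20 (4.08%, against 1.04%), in ranks 8, 9, 16, 18 and 58. Events listed in wild type add to the level by which the genes were chosen, so nothing is read from these shares. The 20 are not independent either, since a first exon, a last exon and the skipped exons of 1 transcript are listed together. Per library, 292, 315 and 297 of the 490 events were listed in the knockouts and 320, 306 and 338 in wild type, which overlap.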

How the data were processed

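The authors deposited 1 table per library with FPKM per transcript event, and each FPKM value is used as deposited. Tools named by the submitters' processing notes are cutadapt and bcl2fastq 2.17.1.14. For the assembler, event caller and genome build, nothing is given in the sources used here, and coordinates are those of the deposited tables. RNA was taken with Trizol, per the labels' protocols. The tables hold no counts, so no counting interval is given. The lowest FPKM listed is 0.000171, and missing rows entered as 0.

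Gene levels, as log2(FPKM + 1), entered a limma fit (version 3.58.1, R 4.3.3) with a mean-variance trend in its empirical Bayes step and genotype alone as covariate. Tests were two-sided, with Benjamini-Hochberg adjustment over 10809 genes. Shares of FPKM were tested with limma over 16305 elements whose forms had at least 1 FPKM together in every library, so a single form may be at 0. Single values per library had an exact permutation test in scipy 1.17.1. Both limma fits were first tested on simulated data, where false calls exceeded the nominal rate for shares.

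The members, lists and tests were chosen with earlier results of these data known. Named genes are the first 10, those called, the 5 largest differences without overlap in each direction, those with a called element, 3 on each side of rank 100, and the 5 that fell furthest in rank or entered the knockout top 100 highest. Others with elements or events that separate the genotypes, at ranks 12, 16, 17, 31, 39, 45 and 95 and in the neighbourhoods, were picked after their values were seen. Marker lists for keratinocytes, hair, fibroblasts, muscle, glands, melanocytes, blood, ribosome and housekeeping genes could not be applied, since 0 IDs matched a name. Alternatives changed the pseudocount, filter, gene value, scaling, choice of members, element minimum, exon definition, replicate block and libraries used.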

Additional observations from a re-analysis of the deposited data

How the results depend on the processing

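The difference in the share of the own 100 most abundant genes (3.45 points) kept its direction in all 11 alternatives, between 2.22 points with last-exon events alone and 4.29 points without knockout replicate 1. The count of abundant genes with a called level (1) was 2 with last-exon events alone (with rank 16) and 2 with single loci (with rank 18). It was 0 without the filter on low values, and 0 to 1 with 1 library left out. Last exons of rank 16 were at 0 in every knockout and passed the filter through wild type alone, so nothing is read from that call. As single loci, the longer locus of rank 18 was called higher in knockout and its other locus, at 0 in every knockout, lower. Rank 25 had an adjusted p of 0.0759 without the filter. For rank 18 the log2 fold change reversed to -0.076 with last-exon events alone (adjusted p = 0.889), and the cause was not tested.

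The count with a called form (1) was 2 with a minimum of 5 FPKM and 0 to 3 with 1 library left out. With first or last exons of the same outer end merged, an alternative chosen after seeing the data, it was 1 again, with rank 6 in place of rank 8.

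The labels share replicate numbers, but deviations of same-numbered libraries correlated at -0.00499, 0.144 and 0.0471, so the numbers are not taken to pair the samples. With the replicate number as a block, 1 level was called, that of rank 18 (adjusted p = 0.0393) in place of rank 25 (0.0666), and 0 forms. Of the 3 knockouts, 1 (replicate 2) correlated best with the wild-type library of its number.

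Over all genes tested, the 102 called became 61 with a pseudocount of 0.1, 38 with at least 5 FPKM on average, and 8 to 77 with 1 library left out. Elements called went from 110 to 50 with a minimum of 5 FPKM, 0 with the block and 133 to 239 with 1 library left out. Why these counts move was not tested. Depth is unknown, so no limit from counting can be given.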

Other observations

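Loci without an Ensembl ID were outside the choice of genes, and 8 of them reached the level of the 100 genes in wild type. The highest, on chromosome 19 from 42079904 to 42293287, lies inside the neighbourhood of 6 abundant genes there. It had 2015, 1330 and 1892 FPKM in knockout skin against 907, 578 and 693 FPKM in wild-type skin, without overlap (limma: log2 fold change 1.27 ± 0.24 SE, adjusted p = 0.0785). Loci on chromosome 4 from 39676228 to 39677790 had 675, 579 and 866 FPKM against 476, 439 and 575 FPKM, and on the mitochondrial chromosome from 15760 to 17250 had 547, 433 and 57.4 FPKM against 275, 428 and 243 FPKM. The other 5 had fitted changes with an adjusted p of 0.434 to 0.933. Loci without an ID held 5.59% ± 0.383 of a knockout library and 5.12% ± 0.115 of a wild-type one (mean ± SD of 3; exact two-sided permutation test, p = 0.3).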
